A study of Mus musculus with 12 samples.

Results

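The genes described here are those that copy the DNA in S phase: 39 genes for the MCM helicase and its loaders, origin firing, cyclin E, the DNA polymerases, the sliding clamp and its loader, single-strand binding, nucleotide supply, strand joining and chromatin assembly. They were taken as a list by name, 1 probe set per gene, the one with the highest mean over all arrays. This rule uses no measured change, but the list was chosen with earlier results of these data known. A probe set is a group of short probes on the array that reads 1 transcript. 38 of the 39 genes had a named probe set, of 18193 genes with one on the array, and *Chaf1a*, which encodes a subunit of a histone chaperone, is unnamed here. All 38 were called present in all 4 groups of embryos, as were 9786 genes in all.

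Facial tissue of E10.5 mouse embryos was profiled on 12 arrays. The nasal and the maxillary prominences, the swellings that meet to form the upper lip, were dissected from Neo/Null embryos (labelled NeoNull, aflox/null) and from Neo/Wt embryos (labelled control, aflox/wt), and RNA of pooled embryos was hybridised with 3 arrays for each genotype and prominence. Neo/Null embryos carry a Neo allele of *Tfap2a*, in which a neomycin cassette between exons of the DNA-binding domain makes a hypomorph, opposite a null allele, and Neo/Wt embryos carry the Neo allele opposite a wild-type one, so that both genotypes have the cassette. The mice were outbred and of the Black Swiss background, the alleles are germline, and the sources used here do not say if embryos whose neural tube was open went into the pools. The pools are described as independent biological samples, and the number of embryos in each is not given.

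DNA replication is prepared in G1, when the origin recognition complex, Cdc6 and Cdt1 load the MCM helicase onto DNA, a step called licensing. At the start of S phase, cyclin E with its kinase and the firing factors switch the loaded helicase on, and polymerases, primase, the sliding clamp PCNA and its RFC loader then build the new strands. Many of these genes are transcribed at the border of G1 and S by E2F factors, which are held back by the Rb family, so that their transcript level in a tissue is often read as a measure of how many of its cells are cycling. In the face at this stage, growth of the prominences brings them together before they fuse, and the study also counted cells in S phase and mitosis in these prominences by other methods. The question put to the arrays here is whether the replication genes differed between the genotypes in either prominence.

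Promoter sequence was at hand for 32 of the 39 genes (RefSeq, build GRCm38.p6), in windows that run from 250 bases before to 50 bases after each annotated start. The letters searched on both strands, TTTGGCGC, TTTGCCGC, TTTCGCGC and TTTCCCGC, are forms of the element that E2F factors bind. They were found in 11 of the 32 genes (34.4%), against 704 of the 27025 genes in the table (2.6%). CCAAT, the box bound by NF-Y, was found in 21 of the 32 genes (65.6%), against 41.1% of all genes in the table. TTTGAA, the element typical of genes of the later cell cycle, was found in 4 (12.5%), against 20.2%. None of these words holds another of them, although copies can overlap in a promoter. A match describes letters only. Stretches of 80 bases upstream of 4 of the genes follow, 5′ to 3′ on the strand of the gene, with the E2F letters in capitals. *Mcm5* and *Mcm6* encode helicase subunits and *Rfc3* and *Rfc5* clamp loader subunits. *Mcm5* is shown because a pair of the words overlap there and *Rfc5* because it is the member that passed the adjusted test. *Mcm6* and *Rfc3* are among the 6 members with an unadjusted p under 0.05 between Neo/Null prominences below (limma). Of these 6 they are the ones with E2F letters upstream of the start, so that they were picked by their letters too. None of the words searched lies in the *Rfc5* window.
Mcm5 (chr8:75109324-75109403, plus strand): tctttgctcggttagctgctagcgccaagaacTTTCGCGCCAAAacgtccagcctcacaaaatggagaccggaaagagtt
Mcm6 (chr1:128359709-128359788, minus strand): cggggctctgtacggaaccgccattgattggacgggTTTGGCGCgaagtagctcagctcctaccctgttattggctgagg
Rfc3 (chr5:151651209-151651288, minus strand): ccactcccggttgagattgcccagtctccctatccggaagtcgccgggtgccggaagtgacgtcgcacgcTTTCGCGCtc
Rfc5 (chr5:117389024-117389103, minus strand): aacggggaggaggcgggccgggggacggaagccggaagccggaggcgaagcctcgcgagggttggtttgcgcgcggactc
Counted from the start, with the last base before it as -1, the *Mcm6* letters shown begin at -47, those of *Mcm5* at -153 and -149 and those of *Rfc3* at -10. *Mcm6* has 3 such matches in its window, more than any other member, and *Orc1*, *Cdc6*, *Pola1* and *Mcm7* also have a match upstream of the start. In *Mcm3*, *Cdt1*, *Pold1* and *Lig1* the match lies after the start.

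The arrays were alike in scale, with medians of 5.13 to 5.19 log2 units and values from 2.07 to 14.26. The probe set of *Tfap2a* itself chosen by the same rule differed by 0.01 log2 units in nasal and 0.06 in maxillary tissue (Neo/Null minus Neo/Wt), and since where its probes lie relative to the altered exons is not known, this does not check the genotype. The tissues were checked by their markers. *Pax7*, a nasal gene, was called present in nasal tissue and absent in maxillary tissue of both genotypes, and *Lhx6*, a maxillary one, the reverse. Not all markers split so. Of 5 nasal markers, 5 were called present in nasal and 2 in maxillary tissue of both genotypes. Of 8 maxillary markers, 3 were called present in nasal and 6 in maxillary tissue. *Dlx5* and *Dlx6*, of the maxillary list, read higher in nasal tissue in both genotypes. One array stood apart. In Neo/Wt maxillary replicate 3, the median deviation of 10 markers of differentiating neurons from their own means over the 12 arrays was -1.55 log2 units, whereas it was 0.35 to 0.71 in the 3 Neo/Null maxillary arrays and 0.09 and 0.27 in the other two Neo/Wt maxillary arrays. In bulk tissue such as this, fewer cells of a type and less RNA per cell cannot be told apart. Where leaving out that array changed a call of a member or the split of the members by direction, the value without it is given. Counts of groups that do not overlap and of intervals within a bound are given with all arrays only.

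The replication genes were among the steadier transcripts of these arrays. Their mean log2 signals lay between 6.61 (*Tyms*) and 13.33 (*Pcna*), and signals of different probe sets are not compared as levels. The median standard deviation within a group was 0.053 log2 units for the 38 members and 0.091 for the 9786 genes. Over all 12 arrays the lowest and the highest value of a member lay a median of 0.227 apart, against 0.343 for all genes. The widest range was that of *Ccne2* at 0.695, followed by *Tyms* at 0.471 and *Cdt1* at 0.424. Bright probe sets usually vary less than dim ones, and the part of signal in this difference was not tested.

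In nasal prominences no replication gene passed a test for a difference between Neo/Null and Neo/Wt. Of the 38 members, 17 were higher and 21 lower in Neo/Null, with a median difference of -0.006 log2 units, against 0.027 over all genes tested, and a range of -0.076 (*Rrm1*) to 0.12 (*Ccne2*), or 0.948-fold to 1.09-fold. So 44.7% of the members were higher, against 65.6% of genes. The split turned with single arrays and with scaling. Of the Neo/Null nasal arrays, leaving out replicate 1 gave 11 higher and 27 lower, and replicate 2 gave 23 and 15. Of the Neo/Wt nasal arrays, leaving out replicate 1 gave 9 higher and 29 lower, and replicate 3 gave 24 and 14. Centring the arrays on their medians also gave 24 and 14, where 74.2% of genes were higher. 0 members passed limma's test at an adjusted p of 0.05, where 0.00987% of 10136 genes did, and 0 passed at an unadjusted p of 0.05, against 3.26% of genes higher and 0.464% lower. In 0 members did the 3 Neo/Null values lie wholly above or below the 3 Neo/Wt values, against 7.14% of genes wholly higher and 1.72% wholly lower. For 37 of the 38 the 95% confidence interval of the difference lay within 0.32 log2 units of 0, a bound met by 77.3% of genes. The exception was *Ccne2*, whose interval reached 0.34 log2 units, or 1.26-fold. Markers of forebrain and neuroepithelium moved with this comparison: 6 of 6 tested were higher in Neo/Null, with a median of 0.26 and 1 past the adjusted test (limma), and their median deviation was 0.821 to 0.909 in the Neo/Null nasal arrays and 0.434 to 0.599 in the Neo/Wt ones. Markers of facial mesenchyme were lower in Neo/Null in 8 of 8, with a median of -0.069, and 0 passed the adjusted test (limma). The part of either list in the values of the members was not tested.

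**Figure D1:**
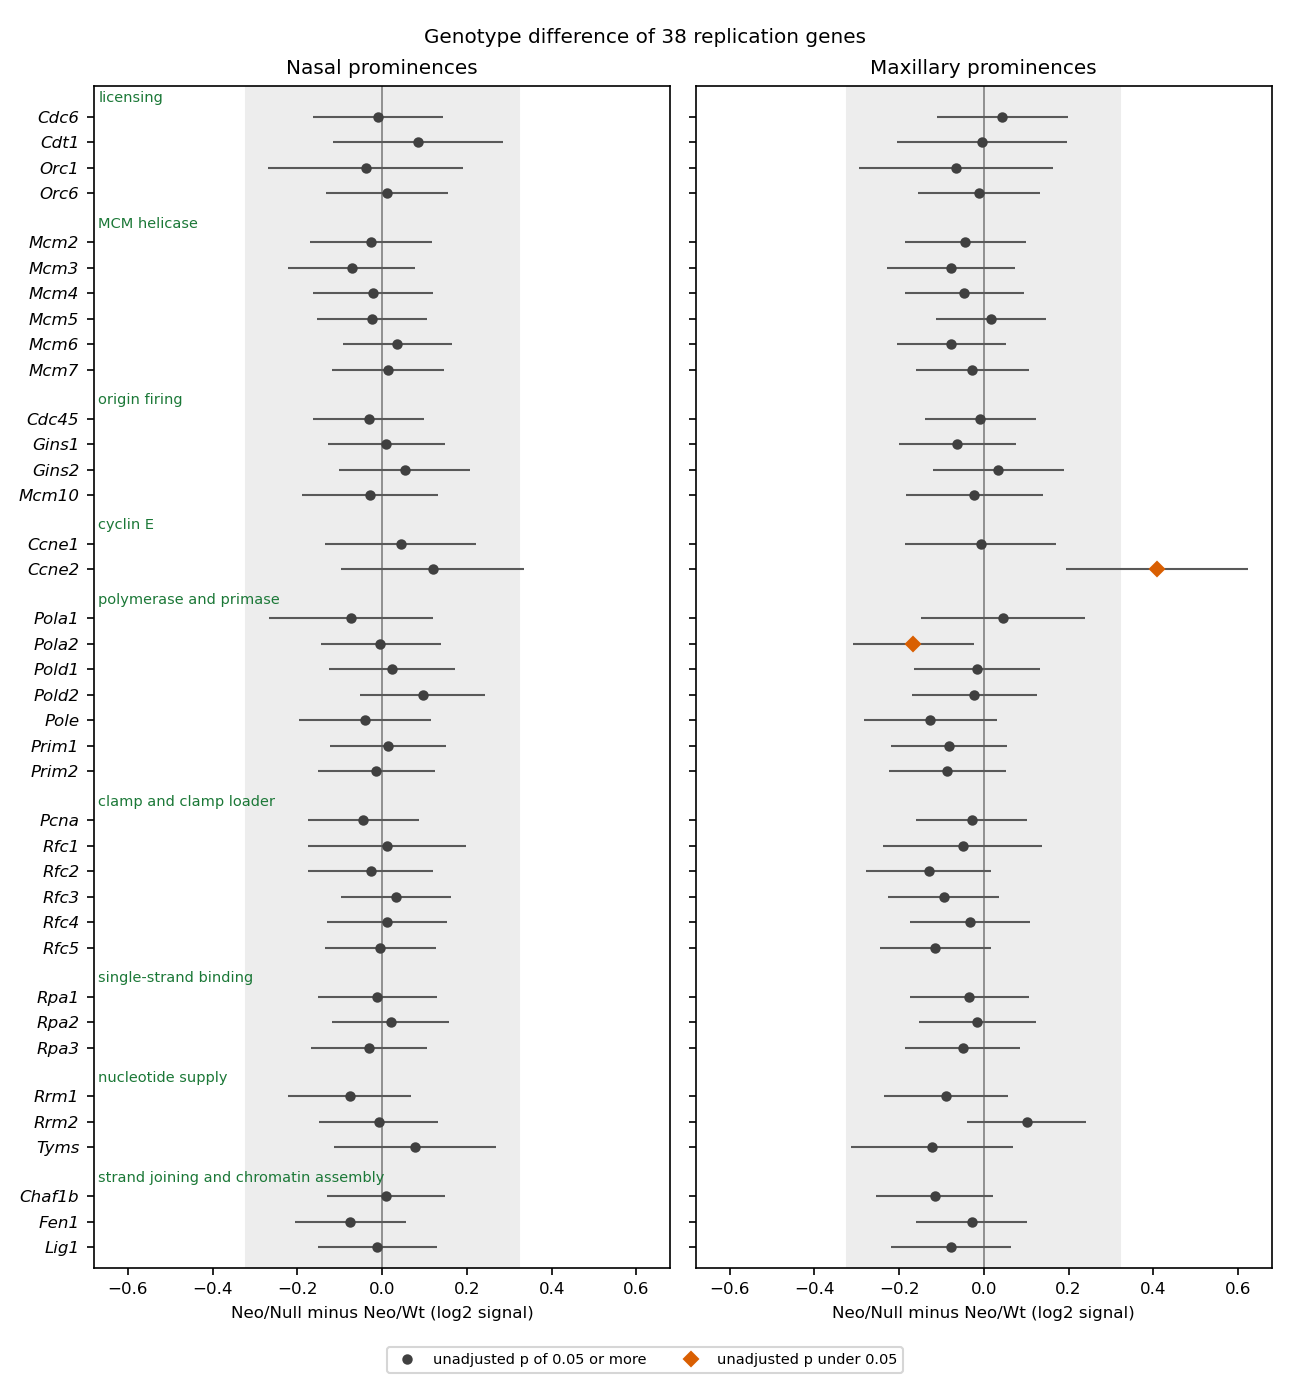
Differences between genotypes for the 38 replication genes, grouped by role, in nasal (left) and maxillary (right) prominences. Points are Neo/Null minus Neo/Wt in log2 signal, bars 95% confidence intervals from limma and the grey band 0.32 log2 units either way, and diamonds mark an unadjusted p under 0.05. Nasal points lie between -0.076 and 0.12, and in maxillary tissue *Ccne2* at 0.41 stands apart from members that lie mostly just below 0.

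The 5 members with the smallest p in nasal tissue show how small the differences were. *Pold2*, which encodes the small subunit of polymerase delta, had log2 signals of 9.65, 9.62 and 9.56 in Neo/Null and 9.46, 9.51 and 9.56 in Neo/Wt, a difference of 0.096 ± 0.068 (SE). At the decimals given, the highest Neo/Wt value equalled the lowest Neo/Null value. *Fen1*, the nuclease that trims Okazaki fragments, read 11.37, 11.30 and 11.30 in Neo/Null and 11.43, 11.33 and 11.43 in Neo/Wt, a difference of -0.075 ± 0.061 (SE). *Ccne2*, which encodes cyclin E2, read 8.63, 8.53 and 8.55 in Neo/Null and 8.46, 8.54 and 8.36 in Neo/Wt. These values overlap by a single Neo/Wt array, and the difference was 0.12 ± 0.099 (SE). *Rrm1*, the large subunit of ribonucleotide reductase, read 11.92, 12.09 and 12.01 in Neo/Null and 12.11, 12.05 and 12.10 in Neo/Wt. *Mcm3*, a subunit of the helicase, read 10.80, 10.64 and 10.77 in Neo/Null and 10.88, 10.81 and 10.74 in Neo/Wt. For both, the ranges of the genotypes overlap, with differences of -0.076 ± 0.067 and -0.072 ± 0.069 (SE). The adjusted p of each of the 5 was 0.9999 (limma, Benjamini-Hochberg).

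By role, the nasal medians lay between -0.023 for the 6 MCM helicase genes and 0.082 for the cyclin E pair. The licensing genes *Orc1*, *Orc6*, *Cdc6* and *Cdt1* had a median of 0.001, the firing factors *Cdc45*, *Mcm10*, *Gins1* and *Gins2* of -0.009 and the 7 polymerase and primase genes of -0.004. The clamp and its loader had a median of 0.003, the RPA subunits that cover single strands of -0.011, nucleotide supply of -0.008 and strand joining with chromatin assembly of -0.011.

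In maxillary prominences most replication genes sat slightly lower in Neo/Null and *Ccne2* sat higher, but none passed the adjusted test. 6 members were higher and 32 lower in Neo/Null, so that 15.8% were higher, against 42.1% of the 10060 genes tested. Without Neo/Null maxillary replicate 2 they were 11 and 27, with 50.2% of genes higher. The median difference was -0.039 log2 units, against -0.016 over all genes, and the range ran from -0.166 (*Pola2*, 0.891-fold) to 0.41 (*Ccne2*, 1.33-fold). 0 members and 0% of genes passed at an adjusted p of 0.05. At an unadjusted p of 0.05, 1 member was higher (2.66% of genes) and 1 lower (2.01% of genes). With 32 added to the linear signal 2 were higher and 7 lower (8.83% of genes in all), and with a robust fit whose variance follows the signal 2 and 6 (6.79% of genes). With the replicate number as a block 1 was higher and 0 lower (4.82% of genes). The 3 values of the genotypes did not overlap in 1 member that was higher (6.06% of genes) and in 8 that were lower (6.55% of genes): *Mcm4*, *Gins1*, *Rfc2*, *Rfc3*, *Rfc5*, *Pola2*, *Prim2* and *Chaf1b*, named because of their values. For 37 of the 38, *Ccne2* being the exception, the 95% confidence interval lay within the same bound of 0.32, met by 78.1% of genes. Members share RNA pools and are often regulated together, so that 32 lower members are not 32 separate observations.

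*Ccne2* was the member with the widest difference. Its log2 signals were 8.56, 8.78 and 8.57 in Neo/Null maxillary arrays and 8.09, 8.15 and 8.45 in Neo/Wt ones. All 3 Neo/Null values lay above all 3 Neo/Wt values, and the nearest Neo/Wt value was that of replicate 3, the array with few neuronal transcripts. The means were 8.64 ± 0.13 in Neo/Null and 8.23 ± 0.20 in Neo/Wt (SD, n = 3 each), and the difference of 0.41 ± 0.099 (SE) was a 1.33-fold change with a 95% confidence interval of 1.14 to 1.54. The unadjusted p was 0.00129 and the adjusted p 0.67 (limma, Benjamini-Hochberg), with adjusted values of 0.152 to 1 over 23 alternative settings. Without Neo/Wt maxillary replicate 3 the difference was 0.52, with an adjusted p of 0.161 (limma). *Ccne1*, which encodes the other cyclin E, differed by -0.007 in the same tissue, and its other probe set by -0.138 ± 0.078 (SE).

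**Figure D2:**
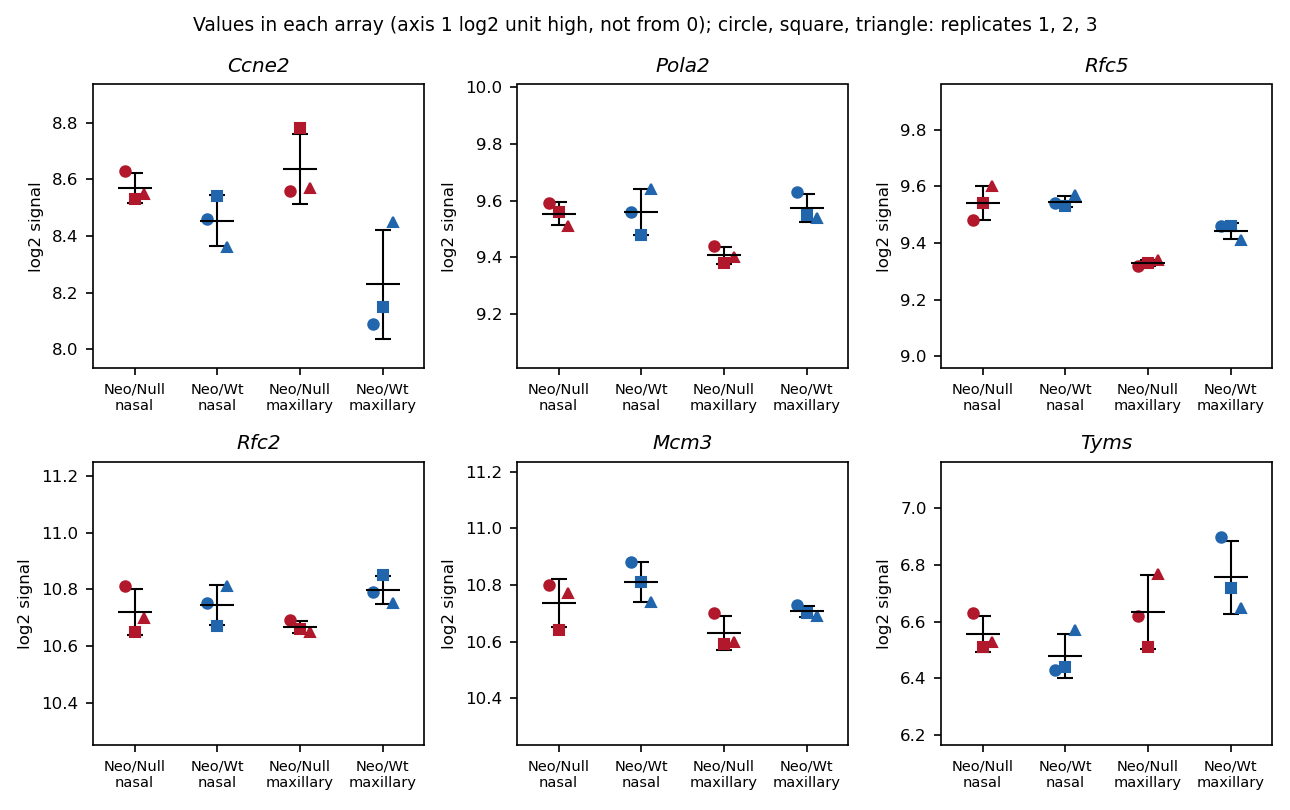
Log2 signal in each array for 6 replication genes. Circles, squares and triangles are replicates 1, 2 and 3 (red, Neo/Null, and blue, Neo/Wt), and bars give the mean and SD of 3 arrays. Each axis spans 1 log2 unit and does not start at 0. *Ccne2* in Neo/Wt maxillary tissue, at 8.09 to 8.45, is the lowest of the 4 groups of that gene, and *Rfc5* in Neo/Null maxillary tissue lies between 9.32 and 9.34.

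The other 4 members with the smallest p in maxillary tissue were lower in Neo/Null. *Pola2*, the regulatory subunit of polymerase alpha, read 9.44, 9.38 and 9.40 in Neo/Null and 9.63, 9.55 and 9.54 in Neo/Wt, a difference of -0.166 ± 0.065 (SE; adjusted p = 0.99, limma). The genotypes did not overlap. *Rfc2*, a clamp loader subunit, read 10.69, 10.66 and 10.65 in Neo/Null and 10.79, 10.85 and 10.75 in Neo/Wt, a difference of -0.129 ± 0.068 (SE). *Rfc5* read 9.32, 9.33 and 9.34 in Neo/Null and 9.46, 9.46 and 9.41 in Neo/Wt, a difference of -0.114 ± 0.06 (SE). In both, every Neo/Null value lay below every Neo/Wt value. *Chaf1b*, a subunit of the chromatin assembly factor, read 9.62, 9.57 and 9.64 in Neo/Null and 9.72, 9.77 and 9.69 in Neo/Wt, a difference of -0.116 ± 0.064 (SE). The adjusted p of the last 3 was 0.9957 each (limma, Benjamini-Hochberg).

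Role by role, all 6 genes of the clamp and its loader were lower in Neo/Null maxillary tissue, with a median of -0.072 and values from -0.129 (*Rfc2*) to -0.029 (*Pcna*). So were 6 of the 7 polymerase and primase genes (median -0.082), the exception being *Pola1* at 0.045, and 5 of the 6 MCM genes (median -0.045), the exception being *Mcm5* at 0.017. The signs of MCM genes depended on the probe set. Another one gave -0.103 for *Mcm5*, 0.118 for *Mcm2*, 0.25 for *Mcm4*, 0.21 for *Mcm6* and 0.097 for *Mcm7*. The 3 RPA genes lay between -0.05 and -0.015, and *Fen1*, *Lig1* and *Chaf1b* between -0.116 and -0.028. Licensing (median -0.008) and origin firing (median -0.015) lay nearer to 0. In nucleotide supply *Rrm2*, the small subunit of ribonucleotide reductase, differed by 0.101 and *Tyms*, the enzyme that makes thymidylate, by -0.122. None of these but *Pola2* reached an unadjusted p of 0.05. With the replicate block *Pola2* did not, at the same difference with an SE of 0.074 (adjusted p = 0.918, limma), and *Ccne2* alone remained.

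The neuron markers moved with this comparison. In maxillary tissue 9 of the 9 tested were higher in Neo/Null, with a median of 1.18 log2 units, 5 of them had an unadjusted p under 0.05 and 0 passed the adjusted test (limma). Without Neo/Wt maxillary replicate 3, an alternative chosen after seeing the data, all 9 were still higher, but the median was 0.292 and 2 had an unadjusted p under 0.05. With all arrays, in nasal tissue 8 of 9 were higher, with a median of 0.184. Over the maxillary arrays the median deviation of the neuron list was 0.35 to 0.71 in Neo/Null and -1.55 to 0.27 in Neo/Wt. None of the list was called absent in Neo/Null maxillary tissue, and *Elavl3* alone was in Neo/Wt. Markers of facial mesenchyme, the tissue that makes up most of a prominence, had a median of -0.184, with 7 of 8 lower, and of -0.257, with 8 of 8 lower, without that array. Macrophage markers were higher in Neo/Null in 6 of 6, with a median of 0.136, or 0.104 without that array, 2 had an unadjusted p under 0.05, or 0 without that array, and 0 passed the adjusted test (limma). Their median deviation was 0.233 to 0.346 in the Neo/Null maxillary arrays and 0.027 to 0.143 in the Neo/Wt ones, without overlap. Postmitotic neurons no longer replicate their DNA. The part of cell composition in the maxillary values of the members was not tested. Without Neo/Wt maxillary replicate 3 the median of the members was -0.048, with 8 higher and 30 lower, and 4 reached an unadjusted p of 0.05: *Ccne2* and *Rrm2* higher, *Pola2* and *Pole* lower, against 10.3% of genes.

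**Figure D3:**
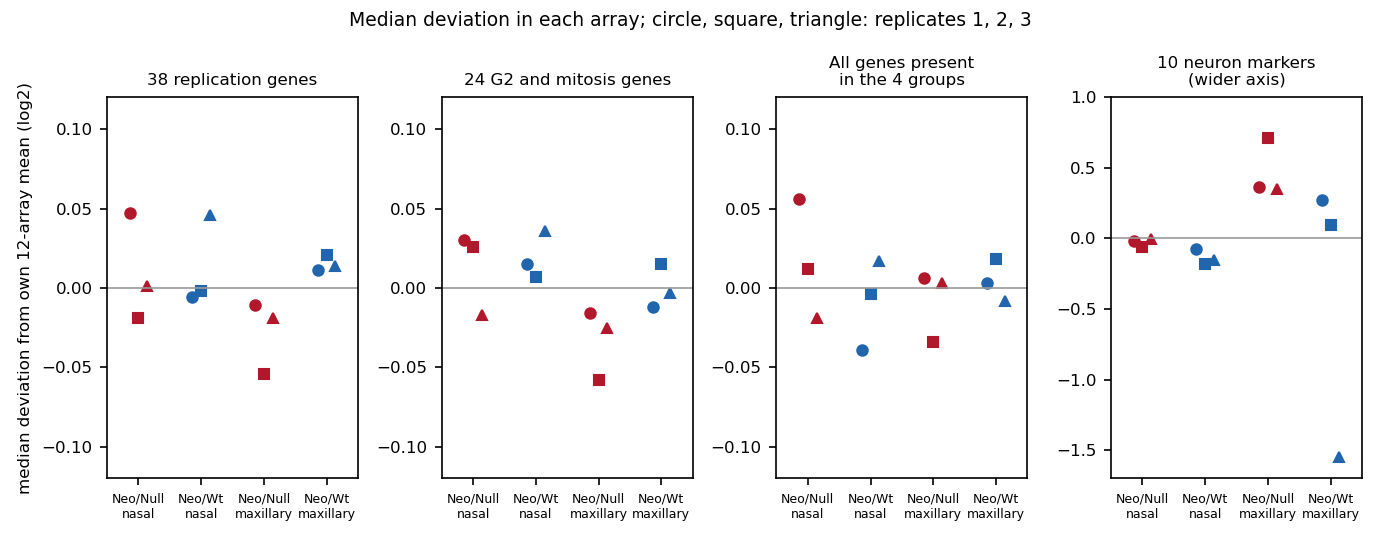
Median deviation of gene lists in each array from each gene's own mean over the 12 arrays, in log2 units (red, Neo/Null, and blue, Neo/Wt; circle, square and triangle, replicates 1, 2 and 3). The replication genes stay between -0.054 and 0.047, a range like that of all genes, while the neuron markers, on a wider axis, drop to -1.55 in Neo/Wt maxillary replicate 3.

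Array by array the members moved little as a body. Their median deviation was 0.047, -0.019 and 0.001 in the Neo/Null nasal arrays and -0.006, -0.002 and 0.046 in the Neo/Wt nasal arrays. The genotypes overlap there, with the highest value of each close to that of the other. It was -0.011, -0.054 and -0.019 in the Neo/Null maxillary arrays and 0.011, 0.021 and 0.014 in the Neo/Wt maxillary arrays, so that all 3 Neo/Null arrays lay lower. In Neo/Null maxillary replicate 2, the lowest, 4 of the 38 members were above their own mean, and the median of all genes was also lowest among the maxillary arrays there, at -0.034. Replicate 3 of Neo/Wt, at 0.014, did not stand apart from its group in the replication genes.

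Averaged over both prominences, 9 members were higher and 29 lower in Neo/Null, with a median of -0.024 log2 units against 0.008 over 9786 genes. Without Neo/Wt nasal replicate 3 the split was 15 and 23, and without Neo/Wt maxillary replicate 3 it was 10 and 28. 0 members and 0% of genes passed at an adjusted p of 0.05, and 1 member and 4.5% of genes reached an unadjusted p of 0.05. That member was *Ccne2*, at 0.26 ± 0.07 (SE; 1.2-fold, adjusted p = 0.757, limma). It was named because of its p, and its values overlap between genotypes in nasal tissue and not in maxillary tissue, as given above. The next 4 by p were *Pola2* (-0.085), *Rrm1* (-0.083), *Pole* (-0.083) and *Rfc2* (-0.078), each with an adjusted p of 0.9999. Without Neo/Wt maxillary replicate 3 *Pole* also reached an unadjusted p of 0.05, at -0.113 ± 0.049 (SE; adjusted p = 0.6292, limma), where 6.54% of genes did. *Pole*, the catalytic subunit of polymerase epsilon, read 9.44, 9.47 and 9.39 in Neo/Null and 9.48, 9.53 and 9.42 in Neo/Wt nasal tissue, and 9.48, 9.37 and 9.37 in Neo/Null and 9.56, 9.62 and 9.41 in Neo/Wt maxillary tissue. Its genotypes overlap in both prominences, in maxillary tissue only through Neo/Wt replicate 3. *Rrm1* read 12.02, 12.05 and 12.07 in Neo/Null and 12.21, 12.13 and 12.07 in Neo/Wt maxillary tissue, with 1 value in common, in Neo/Wt that of replicate 3.

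No member passed a test of whether the genotype difference itself differed between prominences. 0 members and 0% of genes passed at an adjusted p of 0.05, and 0 members and 4% of genes at an unadjusted p of 0.05. *Ccne2* came nearest, with a nasal minus maxillary genotype difference of -0.29 (95% confidence interval -0.59 to 0.015, adjusted p = 0.9992, limma). It reached an unadjusted p of 0.05 without Neo/Wt maxillary replicate 3, at -0.4 ± 0.119 (SE; adjusted p = 0.5539, limma), where 8.19% of genes did, and without Neo/Wt nasal replicate 3, where 5.23% did. *Pola2* followed at 0.162 (-0.038 to 0.363) and *Tyms* at 0.2 (-0.07 to 0.469). *Tyms* read 6.63, 6.51 and 6.53 in Neo/Null and 6.43, 6.44 and 6.57 in Neo/Wt nasal tissue, and 6.62, 6.51 and 6.77 in Neo/Null and 6.90, 6.72 and 6.65 in Neo/Wt maxillary tissue. *Pola2* in nasal tissue read 9.59, 9.56 and 9.51 in Neo/Null and 9.56, 9.48 and 9.64 in Neo/Wt, with overlap. The intervals of 30 of the 38 members lay within 0.32 log2 units of 0, so that for 8 a larger difference between prominences was not bounded by these arrays.

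Set beside this, the prominences themselves differed in many probe sets (1755 in Neo/Null and 1413 in Neo/Wt at an adjusted p of 0.05, limma), and the replication genes again took little part. Both comparisons of prominences use the arrays of the genotype comparisons, so that they are given as values side by side. In Neo/Null embryos *Rfc5* was the 1 member of 38 that passed limma's adjusted test, where 9.92% of 10089 genes did. Its log2 signals were 9.48, 9.54 and 9.60 in nasal and 9.32, 9.33 and 9.34 in maxillary tissue, without overlap, and it was higher in nasal tissue by 0.21 ± 0.06 (SE; 1.16-fold, 95% confidence interval 1.06 to 1.27, adjusted p = 0.0485, limma). The call depended on the setting: the adjusted p was 0.058 after quantile normalization, 0.0941 with a replicate block, 0.12 with only the 6 arrays compared and 0.0507 to 0.147 when any 1 of the arrays other than Neo/Wt maxillary replicate 3 was left out. In Neo/Wt embryos *Rfc5* read 9.54, 9.53 and 9.57 in nasal and 9.46, 9.46 and 9.41 in maxillary tissue, a difference of 0.101 ± 0.06 (SE) that also showed no overlap. Its adjusted p was 0.3996 (limma).

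**Figure D4:**
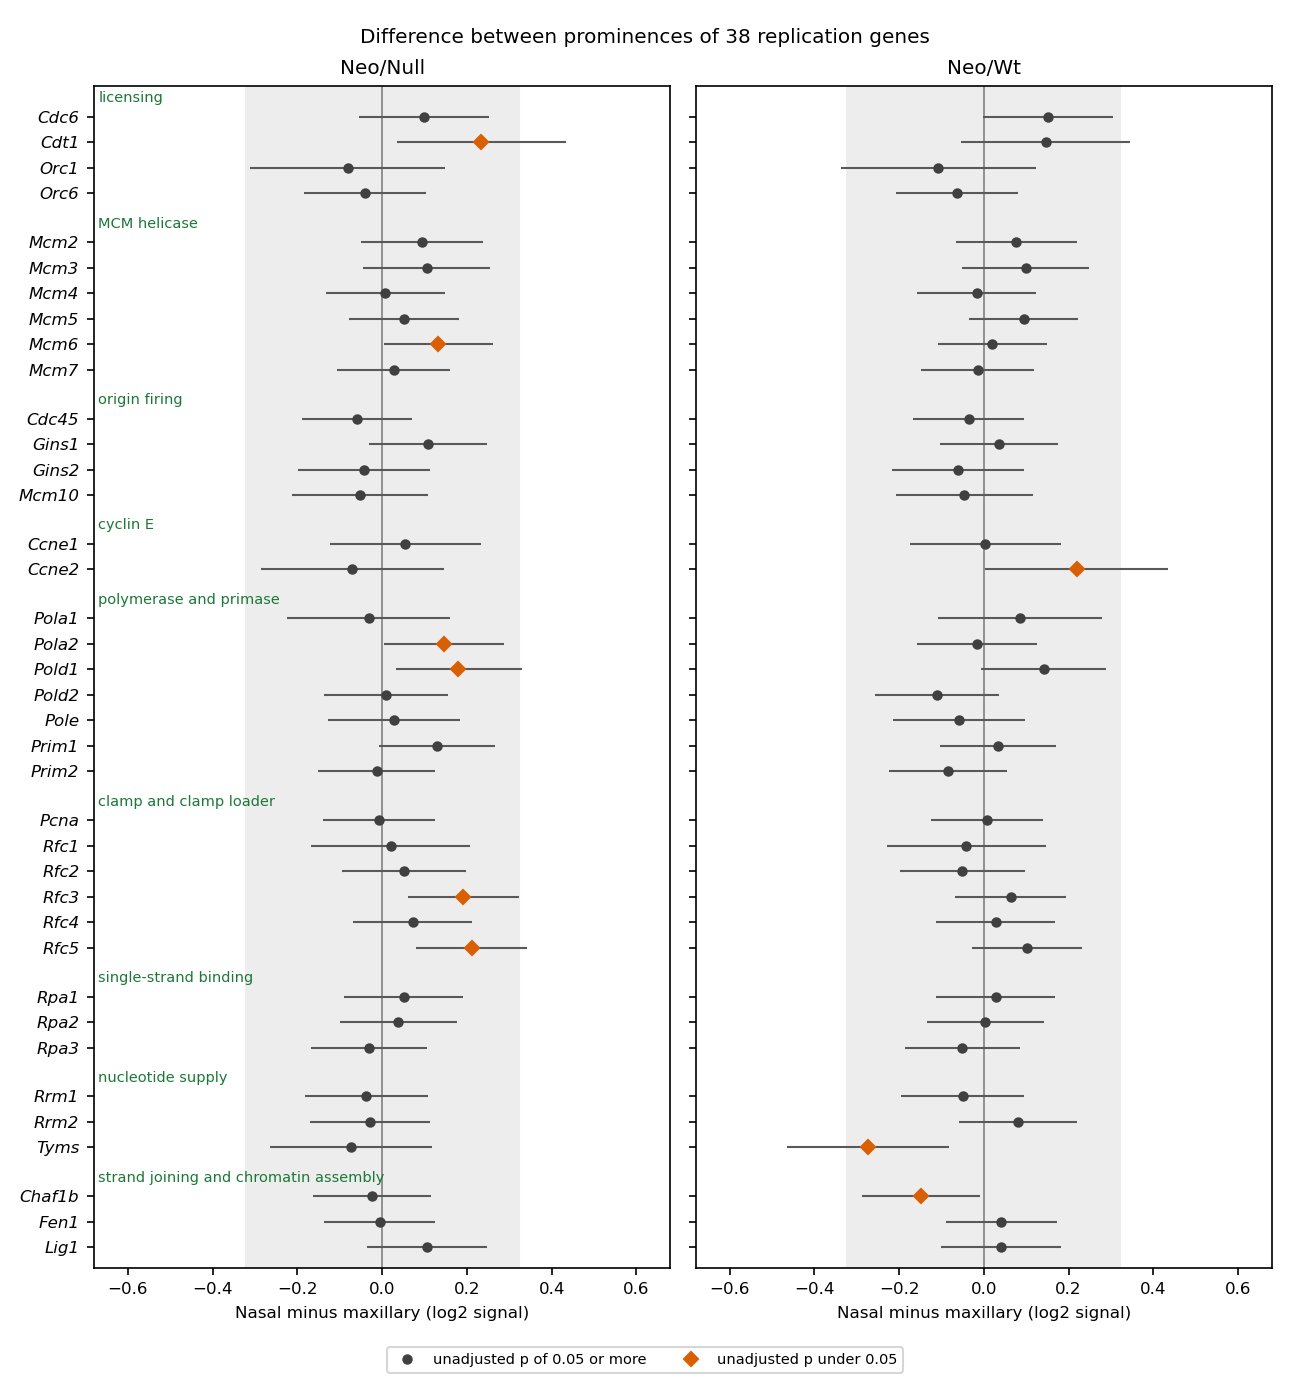
Nasal minus maxillary differences of the 38 replication genes in Neo/Null (left) and Neo/Wt (right) embryos, grouped by role. Points are differences in log2 signal, bars 95% confidence intervals from limma and the grey band 0.32 log2 units either way, and diamonds mark an unadjusted p under 0.05. In Neo/Null *Rfc5* at 0.21 is the 1 member past the adjusted test, and in Neo/Wt *Tyms* lies lowest, at -0.27.

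In Neo/Null 23 members were higher in nasal tissue and 15 lower, with a median of 0.028 against 0.021 over all genes. At an unadjusted p of 0.05, 6 members were higher (14.7% of genes) and 0 lower (7.95% of genes). With a replicate block those higher numbered 4 (14.8% of genes). Beside *Rfc5* the 6 without the block were *Rfc3* (0.191), *Pold1*, the catalytic subunit of polymerase delta (0.18), *Cdt1* (0.23), *Pola2* (0.147) and *Mcm6* (0.132). Their adjusted p-values ran from 0.0751 to 0.221 (limma). *Rfc3* read 10.22, 10.20 and 10.18 in nasal and 10.04, 9.95 and 10.04 in maxillary tissue. *Mcm6* read 11.82, 11.81 and 11.84 in nasal and 11.67, 11.68 and 11.72 in maxillary tissue. Each pair of groups is apart, and in 11 members in all the nasal values were wholly higher (21.3% of genes), in 0 wholly lower (11.2% of genes). The 11 of 38 is a larger share than that of all genes, and the other counts gave shares near or below it, with no test of these shares.

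In Neo/Wt 21 members were higher in nasal tissue and 17 lower, with a median of 0.005 against -0.015 over 9935 genes. 0 members passed the adjusted test, where 7.9% of genes did. At an unadjusted p of 0.05, *Ccne2* was higher (1 member, 9.39% of genes) and *Tyms* and *Chaf1b* lower (2 members, 10.7% of genes). With a replicate block *Tyms* alone remained, where 20.6% of genes were called. The groups did not overlap in 4 members that were higher (12.1% of genes), *Mcm3*, *Mcm5*, *Cdc6* and *Rfc5*, and in 3 that were lower (14.9% of genes), *Cdc45*, *Tyms* and *Chaf1b*. *Tyms* differed by -0.27 ± 0.088 (SE; 0.828-fold, adjusted p = 0.0911, limma). *Ccne2* differed by 0.22 ± 0.099 in Neo/Wt (SE; adjusted p = 0.246, limma) and by -0.07 in Neo/Null. Without Neo/Wt maxillary replicate 3 its difference in Neo/Wt was 0.33, with an adjusted p of 0.0497 (limma). In that setting *Pold2* was also lower at an unadjusted p of 0.05 (limma), so that 3 members were (11.5% of genes). There 16 members were higher and 22 lower, and without Neo/Wt nasal replicate 3 the split was 17 and 21.

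Several members are read by more than 1 probe set, 84 in all. Of the 46 not chosen, 34 to 36 were called present and so tested in each of the 6 comparisons, and 0 of these passed the adjusted test (limma), with 0 to 4 at an unadjusted p of 0.05. In maxillary tissue *Mcm4*, *Mcm6* and *Prim2*, which encodes the large primase subunit, had another probe set whose genotype difference was of opposite sign, more than 2 SE of the difference between probe sets away. The chosen probe set of *Mcm6* gave -0.077 and another one 0.21, those of *Mcm4* -0.046 and 0.25 (adjusted p = 0.99 for both other ones, limma) and those of *Prim2* -0.086 and 0.17. With the mean of all probe sets of a gene in place of the chosen one, 12 members were higher and 26 lower in Neo/Null maxillary tissue. In the mean of both prominences *Mcm4* and *Mcm6* disagreed in the same way. Between prominences of Neo/Wt embryos *Prim2*, *Rfc2* and *Tyms* did: other probe sets gave 0.2 for *Prim2* (not called present), 0.147 for *Rfc2* and 0.041 and 0.137 for *Tyms*, the last not called present. A probe set annotated to both *Tyms* and its pseudogene gave 0.01 in nasal and -0.04 in maxillary tissue for the genotypes and, between prominences, 0.06 in Neo/Null and 0.01 in Neo/Wt embryos.

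Among the listed genes around the members in the cell cycle, no gene passed the adjusted test between genotypes (limma). Some of them differed more in nasal tissue than any member. The splits of the related lists stand beside 65.6% of all genes tested higher in Neo/Null in nasal tissue and 42.1% in maxillary tissue. Of 38 further replication factors tested, 0 passed the adjusted test in any comparison (limma). In nasal tissue 20 were higher and 18 lower in Neo/Null (median 0.01), with *Ticrr*, a firing factor, at 0.23 (adjusted p = 0.9999, limma), the 1 gene of the list with an unadjusted p under 0.05, followed by *Mcm9* (0.137), *Uhrf1* (0.067) and *Nasp* (-0.057). In maxillary tissue 10 were higher and 28 lower (median -0.03), and *Ticrr* was at -0.168 (adjusted p = 0.9957, limma), followed by *Gins4* (-0.108), *Uhrf1* (0.099) and *Orc3* (-0.106). The difference between these for *Ticrr* was 0.39 ± 0.127 (SE; adjusted p = 0.9992, limma). *Ticrr* was the 1 gene of the list with an unadjusted p under 0.05 for it (limma), where 0 members and 4% of genes had one.

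Of the G1/S control genes, 20 were tested in nasal and 19 in maxillary tissue, and 0 passed the adjusted test in any comparison (limma). 13 were higher and 7 lower in nasal tissue (median 0.035), where 65.6% of all genes were higher. *E2f8* was at 0.147, *E2f1* at -0.088, *E2f7* at 0.082 and *Fbxw7*, whose product marks cyclin E for destruction, at 0.102. In maxillary tissue 9 were higher and 10 lower (median -0.001), with *Rb1*, the retinoblastoma gene, at 0.21 (adjusted p = 0.99, limma), *E2f1* at -0.081, *E2f4* at -0.103 and *Skp2* at 0.048. *E2f1*, which encodes an activator of the replication genes, was lower by a similar amount in both prominences, and its mean difference of -0.085 had an adjusted p of 0.9999 (limma).

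The 24 genes of G2 and mitosis gave 14 higher and 10 lower in nasal tissue (median 0.007) and 5 higher and 19 lower in maxillary tissue (median -0.032), and 0 passed the adjusted genotype test (limma). Without Neo/Wt maxillary replicate 3 the maxillary split was 8 and 16. *Foxm1*, a transcription factor of the G2 programme, was at 0.25 in nasal tissue (adjusted p = 0.9999, limma) and -0.182 in maxillary tissue (adjusted p = 0.9957, limma). The difference between these was 0.43 ± 0.136 (SE; adjusted p = 0.9992, limma). *Foxm1* was the 1 gene of this list with an unadjusted p under 0.05 for it (limma), against 4% of genes. Between prominences in Neo/Null embryos *Foxm1* was higher in nasal tissue by 0.42 ± 0.096 (SE; adjusted p = 0.0147, limma) and *Cdca8*, a subunit of the chromosomal passenger complex, by 0.25 ± 0.067 (SE; adjusted p = 0.0337, limma). With the replicate block the adjusted p was 0.00965 for *Foxm1* and 0.0748 for *Cdca8* (limma). With any 1 of the 12 arrays left out it was 0.00379 to 0.0605 for *Foxm1* and 0.0355 to 0.13 for *Cdca8*, past 0.05 without Neo/Null nasal replicate 1 or Neo/Null maxillary replicate 2 or 3 for *Foxm1*, and without Neo/Null nasal replicate 2 or 3 or Neo/Null maxillary replicate 2 or 3 for *Cdca8*. These were the 2 of 24 genes of the list past the adjusted test between Neo/Null prominences, where *Rfc5* was the 1 of 38 replication genes. Of all genes tested there, 9.92% passed.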

How the data were processed

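The authors hybridised RNA of pooled E10.5 prominences to Affymetrix mouse arrays and, per their methods, processed signals in the GeneChip software with 1 scaling factor per array. Each deposited number is a log2 signal of 1 probe set. No source mentions a log and a header names MAS5.0, so the summarisation is not settled and background correction could not be varied. The authors' deposited detection score (present, absent or variable) is given per group by a rule not stated, and 12 columns that repeat the log2 values were not used. The array annotation gives 34958 probe sets a single gene, and 64 control probe sets were left out.

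All 12 arrays entered a linear model of 4 group means (limma 3.58.1, R 4.3.3). P-values were adjusted by Benjamini-Hochberg over the probe sets called present in every group compared, and shares are over genes, 1 probe set each. The methods name no test. The procedure was tested on simulated data. P-values measure the spread between pools, and the number of arrays limits the precision.

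Replicate numbers come from the titles. Same-numbered pools deviated together between prominences (correlations across probe sets of 0.2 to 0.3) and between genotypes in maxillary tissue (0.17, 0.24 and 0.49). The reported fits took the pools as unpaired. The replicate block, which pairs them by number, was fitted as an alternative in every comparison. In maxillary tissue Neo/Null pool 1 with Neo/Wt pool 2 (0.19) and 2 with 1 (0.23) were as close. So the values for these do not show which pools pair. Between genotypes in nasal tissue same-numbered pools did not deviate together (-0.18, 0.14 and 0.22).

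Values are given in every array for members past the adjusted test between prominences, the 5 of smallest p in each genotype comparison and the 3 of smallest p for the difference between prominences, and up to 4 genes are named per related list. *Rfc3*, *Mcm6* and the genes named for groups that do not overlap were chosen after their values were seen. The members, the 3 related gene lists and the marker lists were chosen with earlier results of these data known. Alternatives covered scaling, filters, choice of probe set, an offset, the variance model, array weights, the arrays fitted, a replicate block and leaving out each array. For the marker and related lists, the block and leaving out arrays were added after seeing the data, as was the share of all genes called under each setting.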

Additional observations from a re-analysis of the deposited data

How the results depend on the processing

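Alternative settings gave 633 values of single members, taken only for the members of smallest p in each comparison. Of these values 608 kept their direction and side of the threshold, 0 reversed, 15 lost and 10 gained a call. Picked in this way, the members had little room to reverse, so these counts do not describe all members. Over all members in nasal tissue, 17 were higher and 21 lower in Neo/Null as reported. The split was 9 and 29 without Neo/Wt nasal replicate 1, and 24 and 14 without Neo/Wt nasal replicate 3. All 15 losses were *Rfc5* between prominences in Neo/Null, the 11 left-out arrays named above and quantile normalization, no detection filter (adjusted p = 0.0717), only the 6 arrays compared and the replicate block.

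Members past the adjusted threshold in the genotype comparisons numbered 0 in every setting except an unadjusted p under 0.05 with the fold threshold of the study, which passed 1 in maxillary tissue. In Neo/Null prominences they numbered 0 with quantile normalization, no detection filter, 6 arrays, a replicate block or unadjusted p with fold. There they numbered 2 with the mean of all probe sets, 4 with the offset of 32 or with trend and robust variance, and 0 to 1 with an array left out. In Neo/Wt prominences they numbered 1 with the offset (*Chaf1b*) or with array weights (*Tyms*), and 0 to 1 with an array left out. The share of all genes past the adjusted test, 9.92% in Neo/Null and 7.9% in Neo/Wt as reported, is not given for these settings. At an unadjusted p of 0.05 the share in Neo/Null was 22.6% as reported, 28.6% with the offset and 26.1% with trend and robust variance.

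Members at an unadjusted p of 0.05 in nasal tissue numbered 1 with the mean of all probe sets, with the offset (6.4% of genes) and with only probe sets of plain _at names. In maxillary tissue they numbered 9 with the offset (8.83% of genes) and 8 with trend and robust variance (6.79% of genes), 7 and 6 of them lower in Neo/Null. There they numbered 1 with the replicate block (4.82% of genes) and 1 to 4 with an array left out (2.74% to 10.3% of genes). In the mean of both prominences they numbered 2 with plain _at names, 5 with the offset (7.6% of genes) and 4 with trend and robust variance (6.26% of genes), and 1 to 2 with an array left out. For the genotype difference between prominences they numbered 1 with the mean of all probe sets, 4 with the offset (7.82% of genes), 2 with trend and robust variance (5.68%) and 2 with array weights (6.41%), and 0 to 1 with an array left out. In Neo/Wt prominences they numbered 5 after quantile normalization (21.1% of genes), 8 with the offset (26.3%), 6 with trend and robust variance (23.5%) and 1 with 6 arrays (17.8%) or the replicate block (20.6%), and 1 to 4 with an array left out. In Neo/Null prominences they numbered 2 to 6 with an array left out (18.1% to 24% of genes). The cause was not tested. The median of the members in Neo/Wt prominences was 0.036 with the mean of all probe sets and -0.022 to 0.024 with an array left out.

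Probe sets past the adjusted threshold in nasal tissue, 1 as reported, numbered 2 without the detection filter and with the offset, 3 with trend and robust variance, 0 with a mean signal over 6 or a replicate block, 161 at an unadjusted p with fold, and 0 to 2 with an array left out. In maxillary tissue, 0 as reported, they numbered 1 (offset, replicate block), 3 (array weights), 11 (trend and robust), 296 (unadjusted p with fold) and 0 to 4 with an array left out. In the mean they numbered 1 (offset), 2 (array weights), 6 (trend and robust), 91 (unadjusted p with fold) and 0 to 1, and for the difference 1 (replicate block) and 356 (unadjusted p with fold). Among the members and these counts, the replicate block changed no other call at the adjusted threshold. *Cdca8*, outside the members, lost its call between Neo/Null prominences with the block. With 3 arrays a group, most intervals of the members spanned 0.32 log2 units or less either way of 0.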
